A study of Mus musculus with 14 samples.

Results

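G protein-coupled signalling was described here through the genes of G protein subunits, the RGS proteins that switch G proteins off, numbered orphan receptors (Gpr genes), adenosine and P2Y nucleotide receptors, arrestins and receptor kinases. Members were the probes whose gene symbol in the platform's annotation began with Gpr, Rgs, Gnb, Gng or Grk and a number, with Gna (Gnat left out), or with Adora, Adrb or P2ry, together with Arrb1 and Arrb2 where present. The rule used names only and found 69 genes among the 8841 named on the array, covered by 71 of its 10012 probes. Of these, 67 probes (65 genes) passed the filter on low values and were tested among 9584 probes. The tested probes comprised 21 for Gpr genes, 6 for adenosine and P2Y receptors, 10 for Gα, 6 for Gβ and 7 for Gγ subunits, 14 for RGS proteins and 3 for arrestin and receptor kinases. Gnb1l, a WD-repeat gene with a Gβ-like symbol, is counted among the Gβ probes because its symbol met the rule. Gnas and Rgs3 had 2 probes each. The 4 probes left untested were Gnao1, Grk4, Rgs16 and Rgs20, which were at or near the floor on most arrays that measured them. No level exceeded -1.83 on the log2 scale among these, and Grk4 had no value on 7 arrays.

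The study measured 14 one-colour arrays, 2 for each of 7 groups, on RNA of peritoneal macrophages that thioglycollate broth had elicited in female C57BL/6 mice of 6 weeks. The groups were GW3965 with LPS, GW7845 with LPS and LPS alone, then GW3965 with poly(I:C), GW7845 with poly(I:C) and poly(I:C) alone, and untreated cells. GW3965 is an agonist of the liver X receptors and GW7845 an agonist of PPARγ, both lipid-sensing nuclear receptors, while LPS activates TLR4 and poly(I:C), a double-stranded RNA made by synthesis, activates TLR3. All cells came from the same strain and elicitation, no group received an agonist alone, and doses and treatment times are not known here. The series states 2 biological replicates a condition without saying whether they were separate animals, so p-values measure the spread between these samples. The small number of arrays limits how precise the values can be.

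Receptors with 7 membrane passes act by loading GTP onto a Gα subunit, which then parts from its Gβγ pair, and both parts drive effectors such as adenylyl cyclase and phospholipase C. RGS proteins speed up GTP hydrolysis and end the signal, while receptor kinases and arrestins uncouple the active receptor. In macrophages these pathways serve migration towards chemokines and nucleotides, and cAMP raised through Gs is known to restrain inflammatory output.

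Values are log2 intensities scaled by the authors so that the median of each array lay at about 0, with a floor at -3.87. Of the 71 member probes, 24 lay above the array median on all 14 arrays, 24 lay below it on every array that measured them, and 13 were at the floor on at least 1 array. The arrays fell into 2 sets, A and B, by their missing probes and low-end signal, each with 1 array of every group. Set A held array 1 and set B array 2 of each group, with GW7845 with LPS the reverse. Values of a group's 2 arrays are printed in the order of their numbers, so set B comes first for GW7845 with LPS. Whether the sets also differ in cell preparation is not known. Their 10th percentiles of intensity were 0.137 to 0.271 in set A and 0.0549 to 0.0833 in set B. Changes are given with the standard error (SE) of a limma fit to all arrays, and a change was called at a Benjamini-Hochberg adjusted p under 0.05 over all 9584 probes. A second fit took the array set as a block. Of marker genes of macrophages, 7 of 9 listed had a probe, and their summed intensity was 1380 to 2770 on stimulated arrays and 1130 to 1940 on untreated arrays. Lyz2 was the brightest of these on every array, at log2 levels of 9.96 to 10.92. Sums were taken on the linear scale, where the brightest gene of a list weighs most. Markers of B cells (7 of 9 measured) summed to 12.4 to 25.9 on stimulated and 14.7 to 18.4 on untreated arrays. Markers of T and NK cells (7 of 10) summed to 3.53 to 7.1 and 4.41 to 8.28 on stimulated and untreated arrays, and those of neutrophils (7 of 9) to 16.6 to 60.8 and 16.7 to 29. Of the macrophage markers Cd14 and Msr1 rose with each stimulus and Adgre1 with LPS. Of the neutrophil markers only Camp was called, higher with each stimulus. Ltf, another of them, was not called and went the other way. It had -1.70 and -3.12 with LPS and -1.23 and -2.98 with poly(I:C), against -0.29 and -1.53 without treatment. Those of eosinophils (4 of 5) summed to 2.25 to 5.09 on stimulated and 2.75 to 4.11 on untreated arrays, and those of mesothelial cells and fibroblasts (4 of 7) to 2.59 to 6.97 and 4.55 to 5.8. Mast cell markers (4 of 6) summed to 9.91 to 15.8 on stimulated arrays, above the 8.16 to 9.23 on untreated arrays. Tpsb2 was the brightest of them on every array and weighed most in the sum. Its log2 level was 3.06 to 3.91 on stimulated arrays and 3.06 and 2.94 on untreated arrays. Levels of Cpa3, Mcpt4 and Kit overlapped between stimulated and untreated arrays. None of these 4 mast cell markers was called, and their part in the members' values was not tested. No measured marker was at the floor on both arrays of a group.

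LPS raised 5 member probes and lowered 8, and poly(I:C) likewise raised 5 and lowered 8. The purinergic receptors P2ry13 and P2ry14, the receptors Gpr31b and Gpr85 and the Gβ subunit Gnb4 were higher with each stimulus. The arrestin Arrb1, the G protein inhibitors Rgs2, Rgs10 and Rgs18 and the Gpr genes Gpr65, Gpr146, Gpr162 and Gpr180 were lower with each. Of the members, 7.46% were called higher and 11.9% lower with either stimulus. Among all tested probes 5.21% were called higher and 2.60% lower with LPS, and 6.08% higher and 2.78% lower with poly(I:C). The share of lowered members thus exceeded that of all probes, without a test of that difference. The median member changed by -0.07 with LPS, where the median of all probes was 0.06, and by 0.02 with poly(I:C), where it was 0.10. The comparisons with LPS and with poly(I:C) share the untreated arrays, so an error in those arrays enters both. In whole cultures, fewer cells of a type and less RNA per cell cannot be told apart.

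**Figure D1:**
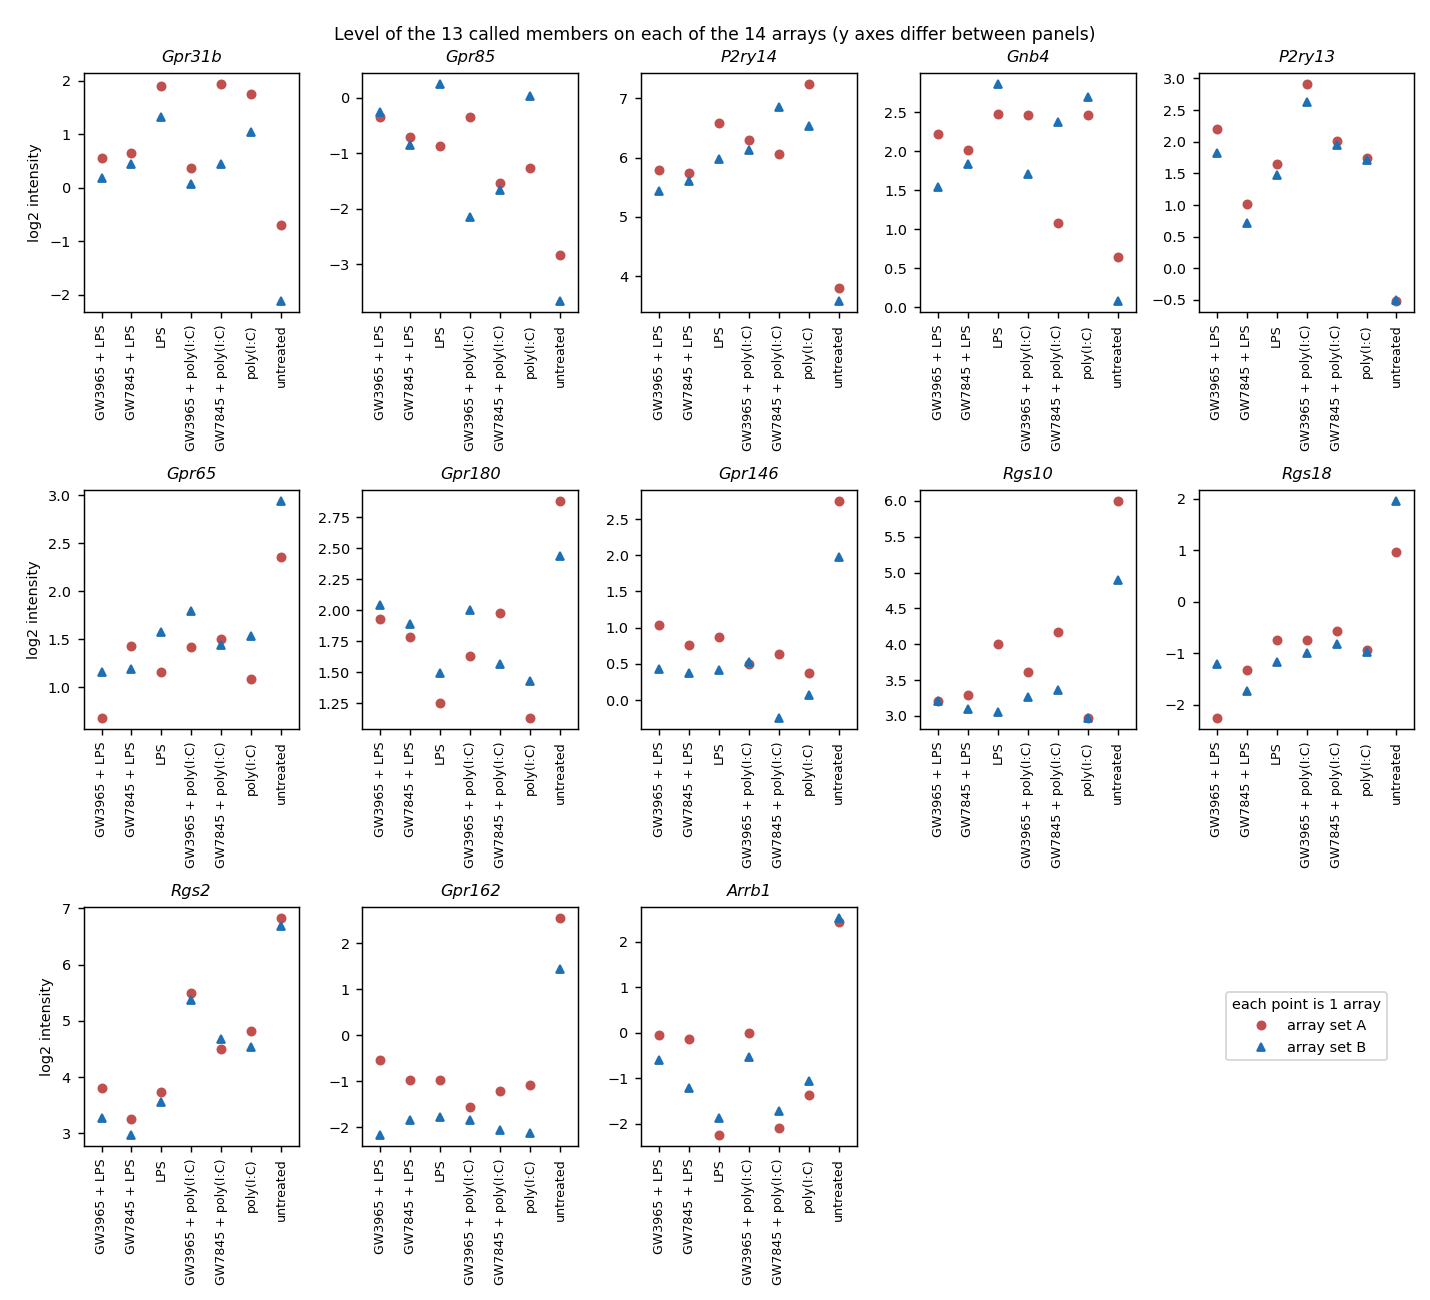
Log2 intensity of the 13 called members on each of the 14 arrays, by group, with array sets A and B as circles and triangles and a separate y axis for each gene. On both untreated arrays the 5 raised members lie below and the 8 lowered members above every one of the 12 stimulated arrays.

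Promoters are shown for 3 receptors raised in the fit without the block. These are the purinergic pair, which lies on one stretch of chromosome 3, and Gpr31b. Of the members raised in that fit, only Gpr31b had a promoter match to a searched motif. The promoters run from 250 bases before to 50 bases after a gene's start, are from RefSeq (build GRCm38.p6) and lie on the minus strand. The Gpr31b promoter is chr17:13052231-13052530, that of P2ry13 is chr3:59210833-59211132, and that of P2ry14 is chr3:59153443-59153742, the first of 4 listed for that gene. Capitals mark a match to a simple κB form (GGG, any 3 bases, TTCC, on either strand), which starts at position -231 of Gpr31b.
Gpr31b: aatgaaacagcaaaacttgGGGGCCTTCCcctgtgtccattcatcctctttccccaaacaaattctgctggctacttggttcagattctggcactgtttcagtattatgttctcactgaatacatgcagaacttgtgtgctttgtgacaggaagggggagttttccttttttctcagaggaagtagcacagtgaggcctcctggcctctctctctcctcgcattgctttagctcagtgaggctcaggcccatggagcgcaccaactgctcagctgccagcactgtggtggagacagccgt
P2ry13: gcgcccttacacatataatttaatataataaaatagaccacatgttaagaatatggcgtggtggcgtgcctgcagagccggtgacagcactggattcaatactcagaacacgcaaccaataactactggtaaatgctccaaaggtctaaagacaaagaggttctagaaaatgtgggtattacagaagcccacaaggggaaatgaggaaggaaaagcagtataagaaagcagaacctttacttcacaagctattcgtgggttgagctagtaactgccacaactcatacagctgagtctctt
P2ry14: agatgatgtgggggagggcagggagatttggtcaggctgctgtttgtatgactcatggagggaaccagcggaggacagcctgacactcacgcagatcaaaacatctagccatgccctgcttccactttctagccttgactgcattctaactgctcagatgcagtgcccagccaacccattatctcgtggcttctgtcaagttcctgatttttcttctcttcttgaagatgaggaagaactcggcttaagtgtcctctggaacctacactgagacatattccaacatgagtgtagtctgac
Promoters were listed for 55 of the 69 member genes, 78 in all. The κB form was in 6 of these 78, belonging to Gpr31b, Gnai3, Gng2, Gpr132 and Gpr19, and in 5.56% of all 32851 promoters. An interferon response core (GAAA, any 2 bases, GAAA) was in 2, of Gna13 and Gpr19, against 3.44% of all, and the cAMP response element TGACGTCA was in 0, against 1.79% of all. The printed P2ry13 and P2ry14 promoters held none of the 3 motifs, which says only that those letters are not in these windows.

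Among the nucleotide receptors, P2ry14, a Gi-coupled receptor for UDP-glucose, stood at 6.59 and 5.98 on the LPS arrays and 7.24 and 6.53 on the poly(I:C) arrays, against 3.81 and 3.58 on the untreated arrays. All stimulated arrays, agonist groups included, lay at least 1.61 above both untreated arrays. P2ry14 rose by 2.59 ± 0.39 (SE) with LPS (6.02-fold, adjusted p = 0.00064) and by 3.19 ± 0.39 with poly(I:C) (9.11-fold, adjusted p = 9.3e-05). P2ry13, a Gi-coupled ADP receptor, stood at 1.64 and 1.48 with LPS and 1.75 and 1.71 with poly(I:C), against -0.52 and -0.50 in untreated cells. The replicates of each of these groups differed by less than 0.2, and P2ry13 rose by 2.07 ± 0.32 with LPS (adjusted p = 0.00081) and by 2.24 ± 0.32 with poly(I:C) (adjusted p = 0.00037). P2ry1, the Gq-coupled ADP receptor, did not pass at -1.14 ± 0.92 with LPS and -2.01 ± 0.92 with poly(I:C). The ATP and UTP receptor P2ry2 was at 0.72 ± 0.67 and 0.69 ± 0.67, the pyrimidine receptor P2ry4 at 0.12 ± 0.73 and 0.38 ± 0.73, and the adenosine receptor Adora3 at -0.49 ± 0.83 and -0.52 ± 0.83, with LPS and poly(I:C) in that order, and none passed.

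Of the 21 Gpr probes, 2 rose and 4 fell with each stimulus, and the other 15 did not pass. Gpr31b, whose human counterpart is known as a receptor for the lipid 12-HETE, had 1.90 and 1.33 with LPS and 1.76 and 1.05 with poly(I:C), against -0.69 and -2.12 without treatment. It rose by 3.02 ± 0.55 with LPS (8.1-fold, adjusted p = 0.0027) and by 2.81 ± 0.55 with poly(I:C) (7.02-fold, adjusted p = 0.0039). The brain-enriched orphan Gpr85 had -0.86 and 0.25 with LPS and -1.26 and 0.04 with poly(I:C), against -2.83 and -3.67 without treatment. Its untreated values lay near the floor, so the rises of 2.95 ± 0.66 (adjusted p = 0.011) with LPS and 2.64 ± 0.66 (adjusted p = 0.020) with poly(I:C) are approximate in size.

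The largest decrease among the member receptors was in Gpr162, an orphan receptor, at -0.97 and -1.78 with LPS and -1.08 and -2.13 with poly(I:C), against 2.55 and 1.44 without treatment. The groups did not overlap, and Gpr162 fell by 3.37 ± 0.66 with LPS (10.3-fold, adjusted p = 0.0045) and by 3.60 ± 0.66 with poly(I:C) (12.1-fold, adjusted p = 0.0025). Gpr146, an orphan receptor known from work on blood cholesterol, had 0.87 and 0.42 with LPS and 0.37 and 0.07 with poly(I:C), against 2.75 and 1.98 without treatment. It fell by 1.71 ± 0.43 (adjusted p = 0.022) and 2.14 ± 0.43 (adjusted p = 0.0044) in those comparisons. Gpr65, a proton-sensing receptor that raises cAMP, had 1.16 and 1.58 with LPS and 1.09 and 1.53 with poly(I:C), against 2.36 and 2.94 without treatment. Its decreases of 1.28 ± 0.36 with LPS (adjusted p = 0.046) and 1.34 ± 0.36 with poly(I:C) (adjusted p = 0.033) were the members' calls closest to the threshold. Gpr180, which the rule took in by its symbol, had 1.25 and 1.49 with LPS and 1.13 and 1.43 with poly(I:C), against 2.88 and 2.44 without treatment. It fell by 1.28 ± 0.34 (adjusted p = 0.030) with LPS and by 1.38 ± 0.34 (adjusted p = 0.018) with poly(I:C).

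Gpr35, a receptor studied with kynurenic acid as ligand, passed only with the array set as a block. It had 0.78 and -0.62 with LPS and 0.83 and -0.33 with poly(I:C), against 2.70 and 1.40 without treatment, so each set showed the gap at a different level. Its change was -1.97 with LPS (adjusted p = 0.12, or 0.0012 with the block) and -1.80 with poly(I:C) (adjusted p = 0.15, or 0.0021 with the block). Its size moved with single arrays, to -1.27 under LPS without LPS 2 and -1.15 under poly(I:C) without untreated 1. The melatonin receptor relative Gpr50 passed with the block under poly(I:C) at 1.32 (adjusted p = 0.014) and did not pass under LPS at 0.57 (adjusted p = 0.31 with the block). The lysophospholipid-linked Gpr132 was at 0.09 ± 0.42 and 0.04 ± 0.42 with LPS and poly(I:C), and Gpr34, a receptor for lysophosphatidylserine, was at -0.01 ± 0.45 and 0.28 ± 0.45. Their 95% intervals for LPS were -0.81 to 0.99 and -0.97 to 0.95.

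Among the G protein subunits, Gnb4 alone was called without the block. It encodes one of the Gβ subunits and had 2.48 and 2.86 with LPS and 2.47 and 2.70 with poly(I:C), against 0.64 and 0.08 in untreated cells. Gnb4 rose by 2.31 ± 0.45 with LPS (4.96-fold, adjusted p = 0.0048) and by 2.22 ± 0.45 with poly(I:C) (4.67-fold, adjusted p = 0.0055). The common subunits Gnb1 (0.42 ± 0.38 with LPS and 0.48 ± 0.38 with poly(I:C)) and Gnb2 (0.23 ± 0.45 and 0.24 ± 0.45) did not pass. Gnb5, the Gβ that pairs with RGS proteins of the R7 family, passed only with the block, at -1.81 with LPS (adjusted p = 0.026) and -1.99 with poly(I:C) (adjusted p = 0.014). Its values were -1.99 and -3.06 with LPS and -1.92 and -3.50 with poly(I:C), against -0.91 and -0.52 without treatment, and its decrease was -1.08 in set A and -2.53 in set B under LPS. With poly(I:C) it was -1.20 without poly(I:C) 2. The set B values of Gnb5 with each stimulus lay near the floor, so the sizes of its decreases are approximate.

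None of the 10 Gα probes was called without the block. Gna13, a Gα subunit of the G12 family, had 0.60 and 0.38 with LPS and 0.42 and 0.45 with poly(I:C), against -0.74 and -0.49 without treatment. With the block its change of 1.10 with LPS passed (adjusted p = 0.044) and that of 1.05 with poly(I:C) did not (adjusted p = 0.053). Gna12, of the same family, was at -1.18 with LPS (adjusted p = 0.060 with the block) and -1.02 with poly(I:C) (adjusted p = 0.10 with the block). Gnai2, a main Gi subunit of leukocytes, was at -0.45 ± 0.50 and -0.27 ± 0.50 with LPS and poly(I:C), and Gnai3 at 0.48 ± 0.49 and 0.23 ± 0.49. The Gq family subunits Gnaq (-0.32 ± 0.68 and -0.57 ± 0.68) and Gna11 (-0.30 ± 0.44 and -0.22 ± 0.44) did not pass. The 2 probes of Gnas, which encodes Gαs, gave -0.13 ± 0.54 and -0.22 ± 0.74 with LPS, and -0.27 ± 0.54 and 0.13 ± 0.74 with poly(I:C). The 7 Gγ probes ranged from -1.11 (Gng2) to 0.89 (Gng4) with LPS and from -1.01 (Gng2) to 0.74 (Gng12) with poly(I:C), and none was called in either fit. Gng10 was at -0.32 ± 0.31 and -0.15 ± 0.31, and Gng11 at -0.24 ± 0.47 and 0.14 ± 0.47.

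**Figure D2:**
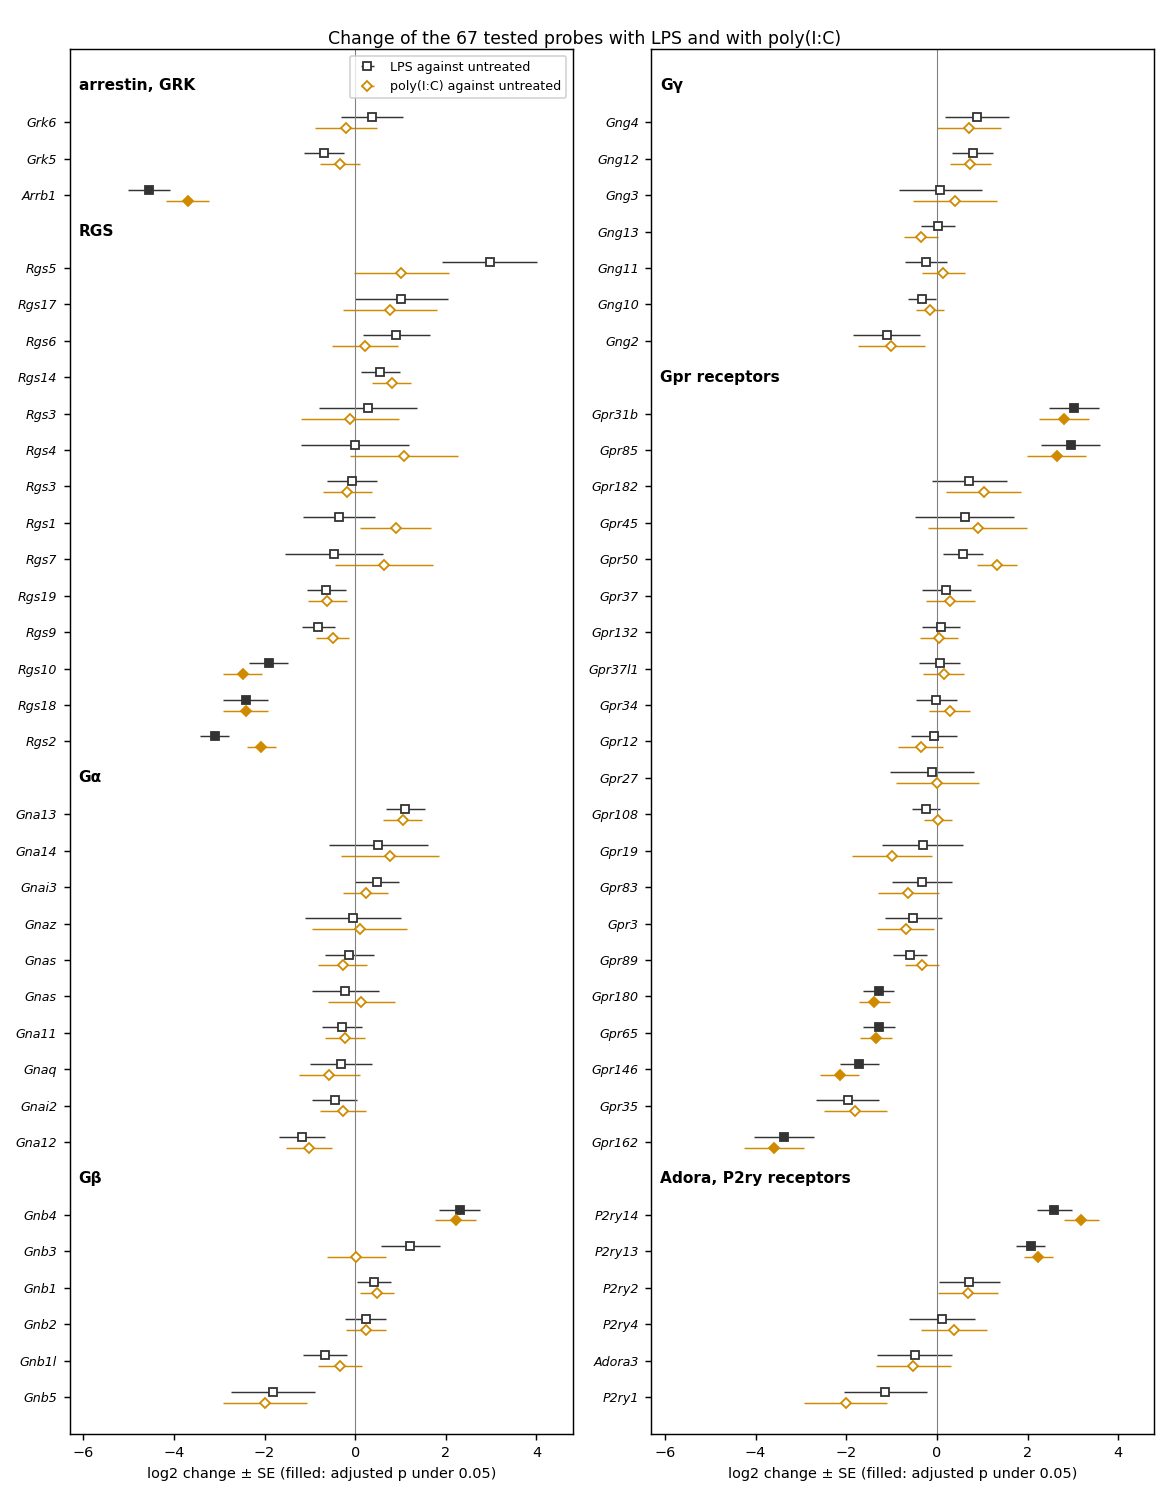
Log2 change of each of the 67 tested member probes with LPS (squares) and with poly(I:C) (diamonds) against untreated cells, grouped by role, with bars of 1 SE and filled symbols for adjusted p under 0.05. Filled symbols range from Arrb1 at -4.55 to P2ry14 at 3.19, and none stands among the Gα and Gγ subunits.

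Of the 14 RGS probes, 3 fell and none rose with each stimulus in the fit without the block. Rgs2, an inhibitor selective for Gq, had 3.74 and 3.56 with LPS and 4.82 and 4.54 with poly(I:C), against 6.83 and 6.68 in untreated cells. The LPS arrays were the lowest of these 6 and the untreated arrays the highest, with no overlap. Rgs2 fell by 3.10 ± 0.32 with LPS (8.6-fold, adjusted p = 2.1e-05) and by 2.07 ± 0.32 with poly(I:C) (4.21-fold, adjusted p = 0.00069). Rgs10, a small RGS protein studied in microglia and macrophages, had 4.01 and 3.06 with LPS and 2.97 on both poly(I:C) arrays, against 6.00 and 4.90 without treatment. It fell by 1.91 ± 0.43 with LPS (adjusted p = 0.012) and by 2.48 ± 0.43 with poly(I:C) (5.57-fold, adjusted p = 0.0018).

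Rgs18, known from platelets and other blood cells, had -0.74 and -1.17 with LPS and -0.93 and -0.98 with poly(I:C), against 0.96 and 1.96 without treatment. It fell by 2.42 ± 0.49 with each stimulus (5.34-fold, adjusted p = 0.0063 with LPS and 0.0055 with poly(I:C)). Of the platelet and red cell markers, 4 of 6 listed were measured, and they summed to 21.5 to 72.3 on stimulated and 14.2 to 42.4 on untreated arrays. The sum was mostly Pf4, at log2 levels of 4.33 to 6.13 on stimulated arrays and 5.37 and 3.75 on untreated arrays. Hba-a1, Alas2 and Itga2b lay below 1 on every array. None of these 4 was called with either stimulus, and their part in the Rgs18 values was not tested.

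Rgs5, best known from pericytes, passed only with the block and only with LPS. It had 0.71 and -1.26 with LPS and -1.37 and -3.10 with poly(I:C), against -2.63 and the floor of -3.87 without treatment. The change with LPS was therefore at least 2.97 (adjusted p = 0.12, or 0.00045 with the block), with 1.98 without LPS 1 and 3.96 without LPS 2, and that with poly(I:C) at least 1.02 (adjusted p = 0.17 with the block). Rgs9, an R7 family member known from photoreceptors and striatum, passed with the block under LPS at -0.81 (adjusted p = 0.039, and -0.44 without untreated 1) and was at -0.50 with poly(I:C) (adjusted p = 0.20 with the block). Rgs1, which dampens chemokine signals in lymphocytes, was at -0.36 ± 0.79 with LPS and 0.89 ± 0.79 with poly(I:C). Rgs14 was at 0.55 ± 0.43 and 0.81 ± 0.43, Rgs19 at -0.64 ± 0.43 and -0.62 ± 0.43, and the brighter Rgs3 probe at -0.07 ± 0.55 and -0.17 ± 0.55, and none of them passed in either fit.

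Arrb1 encodes β-arrestin 1, which uncouples phosphorylated receptors and carries them to other signalling partners. It had -2.25 and -1.88 with LPS and -1.37 and -1.06 with poly(I:C), against 2.44 and 2.53 in untreated cells. Both untreated arrays were above the array median and all 12 stimulated arrays below it, and the nearest of these lay 2.45 under the untreated arrays. Arrb1 fell by 4.55 ± 0.47 with LPS (23.4-fold, adjusted p = 1.9e-05), -4.69 in set A and -4.41 in set B. With poly(I:C) it fell by 3.70 ± 0.47 (13-fold, adjusted p = 0.00012). The receptor kinases Grk5 (-0.68 ± 0.44 with LPS and -0.34 ± 0.44 with poly(I:C)) and Grk6 (0.37 ± 0.68 and -0.20 ± 0.68) did not pass.

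With the array set as a block, 7 members were called higher and 11 lower with LPS, or 10.4% and 16.4% of the members, where 9.59% and 8.18% of all probes were. For poly(I:C) the block gave 6 higher and 10 lower, or 8.96% and 14.9%, where 10.6% and 8.03% of all probes were. The shares of raised members lay close to those of all probes. Taking all 12 stimulated arrays against both untreated arrays, 6 of 67 members lay wholly above and 11 wholly below, which compares with 9.21% and 7.60% of 9486 probes. Besides the 13 called members these were Gpr50 above and Gna12, Gnb5 and Gng10 below, the last by a gap of only 0.02.

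Leaving out 1 array at a time ended some calls of the fit without the block. For each stimulus 5 arrays were left out in turn, the 4 compared and GW7845 with poly(I:C) 1. The other arrays, which also enter the spread, were never left out. The shares of all probes called under each omission are not given here, so these losses cannot be read as particular to the members. Arrb1, Rgs2, P2ry13, P2ry14 and Gpr31b kept their LPS calls under each omission. Gpr180 and Gpr65 lost theirs without any 1 of the 4 arrays compared, Gpr146 without LPS 1, LPS 2 or untreated 1, and Gpr162 and Rgs10 without LPS 2 or untreated 1. Gnb4, Gpr85 and Rgs18 lost theirs without LPS 2 or untreated 2. For poly(I:C), Arrb1, Rgs2, Rgs10, Gpr162, P2ry13 and P2ry14 kept their calls under each omission. Gnb4, Gpr31b and Rgs18 lost theirs without untreated 2, Gpr146 without untreated 1, and Gpr85 without untreated 2 or poly(I:C) 2. Gpr180 lost its call without untreated 1 or either poly(I:C) array, and Gpr65 without untreated 2 or either poly(I:C) array. With the block, 12 of the 18 LPS calls and 12 of the 16 poly(I:C) calls were kept under each omission. The others were Gpr180, Gpr85, Gnb5, Gpr65, Gna13 and Rgs9 for LPS, and Gpr180, Gpr85, Gnb5 and Gpr50 for poly(I:C).

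Genes that work with the members were followed from 2 lists. Of 41 listed genes of second messenger production and breakdown and of G protein control, 24 were measured. In this list LPS lowered Adcy9, an adenylyl cyclase, by 2.09 ± 0.42 (adjusted p = 0.0053), and no gene rose without the block. With the block Gpsm2, which binds Gαi, was called higher at 1.58 (adjusted p = 0.027), as was the cAMP-responsive factor Crem at 1.01 (adjusted p = 0.041). Poly(I:C) lowered Adcy9 by 1.85 ± 0.42 (adjusted p = 0.011) and raised Gpsm2 by 2.35 ± 0.60 (adjusted p = 0.023). With the block 3 genes were called higher and 1 lower with poly(I:C). Of all probes, 5.21% were called higher and 2.60% lower with LPS, and 6.08% and 2.78% with poly(I:C). With the block these shares were 9.59% and 8.18% with LPS, and 10.6% and 8.03% with poly(I:C). The list's median was 0.15 with LPS and 0.28 with poly(I:C), where the medians of all probes were 0.06 and 0.10.

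Of 45 listed receptors with other symbols, 37 were measured, and 5 rose and 3 fell with LPS, while 4 rose and 3 fell with poly(I:C). With the block the counts were 6 higher and 5 lower with LPS, and 8 higher and 4 lower with poly(I:C). Of all probes, 5.21% were called higher and 2.60% lower with LPS and 6.08% and 2.78% with poly(I:C), or 9.59%, 8.18%, 10.6% and 8.03% with the block. The formyl peptide receptor Fpr2 rose by 6.12 with LPS (adjusted p = 1.7e-07) and by 6.34 with poly(I:C). The lysophosphatidic acid receptor Lpar1 rose by 3.80 and 3.74, the chemerin-binding Ccrl2 by 3.32 and 3.65 and the histamine receptor Hrh2 by 2.33 and 2.45 in those comparisons, and the macrophage antigen gene Adgre1 by 2.21 with LPS. The cannabinoid receptor Cnr2 fell by 3.58 with LPS and by 3.59 with poly(I:C), the Gs-coupled prostaglandin receptor Ptger2 by 2.23 and 2.15, and Adgre5 (CD97) by 2.61 and 2.00. The median of this list was 0.11 with LPS and 0.50 with poly(I:C), beside the 0.06 and 0.10 of all probes.

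Compared directly, poly(I:C) and LPS differed in no member, where 0.0104% of all probes were called without the block and 0.0209% with it. One member of 67, Rgs2, had an unadjusted p under 0.05 in limma, and 4 did with the block, where 0.543% and 3.14% of all probes did. Rgs2 was higher with poly(I:C) than with LPS by 1.03 ± 0.32 (95% interval 0.34 to 1.72, unadjusted p = 0.0065, adjusted p = 1), at 1.08 in set A and 0.98 in set B. Rgs5 was lower by 1.96 in its group means, with a 95% interval of -4.21 to 0.29.

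The agonists were compared with the stimulus alone, and GW3965 and GW7845 share those stimulus arrays. No member was called in limma in any of these comparisons. For GW3965 with LPS, 0.0313% of all probes were called without the block and 0.407% with it, and 3 and 12 of the 67 members had an unadjusted p under 0.05, where 3.11% and 9.76% of all probes had. For GW3965 with poly(I:C) the shares of all probes were 0.0104% and 0.0730%, with 4 and 11 members under an unadjusted p of 0.05, where 1.49% and 6.2% of all probes were. For GW7845 with LPS, and for GW7845 with poly(I:C), 0.00% of all probes were called in each fit. An unadjusted p under 0.05 was reached by 3 and 8 members with LPS, where 1.44% and 5.94% of all probes reached it, and by 0 and 4 members with poly(I:C), where 0.866% and 3.78% did. Taken over both stimuli, 4 arrays against 4, GW3965 gave calls for 0.198% of all probes higher and lower together without the block and 1.15% with it. GW7845 gave 0.00% and 0.0104%. With the block 3 members, or 4.48%, were called for GW3965 over both stimuli: Arrb1, Gpr31b and Rgs5. Unadjusted, 9 of the 67 members had p under 0.05 for it in limma and 16 with the block. Of all probes 4.5% and 13.4% had. For GW7845 over both stimuli no member was called, with 2 members under an unadjusted p of 0.05 in limma and 7 with the block, where 1.68% and 5.71% of all probes were. The summed intensity of the neutrophil markers was 16.6 to 20.6 on the 4 GW3965 arrays and 32.4 to 60.8 on the 4 GW7845 arrays, against 24.1 to 51.2 on the arrays of the stimuli alone. S100a8 had the highest level of these markers on every array and so weighed most in the sum. Its log2 level was 3.73 to 4.13 with GW3965, 4.78 to 5.80 with GW7845 and 4.35 to 5.41 with the stimuli alone. Camp, at 0.21 to 1.17 with GW3965, likewise lay below the stimuli alone, at 1.56 to 2.90. With GW7845 it was at 0.92 to 1.78. Levels of Mpo, Elane, Ltf, Cxcr2 and Ngp overlapped between these groups. The part of the neutrophil markers in the agonist values was not tested.

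Arrb1 had -0.04 and -0.59 on the arrays of GW3965 with LPS and -1.21 and -0.14 on those of GW7845 with LPS, against -2.25 and -1.88 with LPS alone. Each agonist array lay above both LPS arrays. With poly(I:C) it had -0.01 and -0.54 with GW3965 and -2.09 and -1.73 with GW7845, against -1.37 and -1.06 with poly(I:C) alone. Here the GW3965 arrays lay above and the GW7845 arrays below those of the stimulus alone. Over both stimuli Arrb1 was higher with GW3965 by 1.35 ± 0.33 in limma (adjusted p = 0.27), and with the block the same change passed (95% interval 0.74 to 1.95, adjusted p = 0.036). All 4 GW3965 arrays were still at least 2.45 below the untreated arrays. The GW7845 change was 1.39 ± 0.47 with LPS and -0.69 ± 0.47 with poly(I:C). The difference of these, poly(I:C) minus LPS, was -2.08 ± 0.66 (unadjusted p = 0.007, adjusted p = 1). No probe was called in either of these interaction tests (0.00% of all probes for each agonist and fit). Unadjusted, 1 member had p under 0.05 in limma for each agonist, and 2 for GW3965 and 6 for GW7845 did with the block. The shares of all probes were 0.303% and 2.86% for GW3965 and 0.48% and 2.93% for GW7845.

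**Figure D3:**
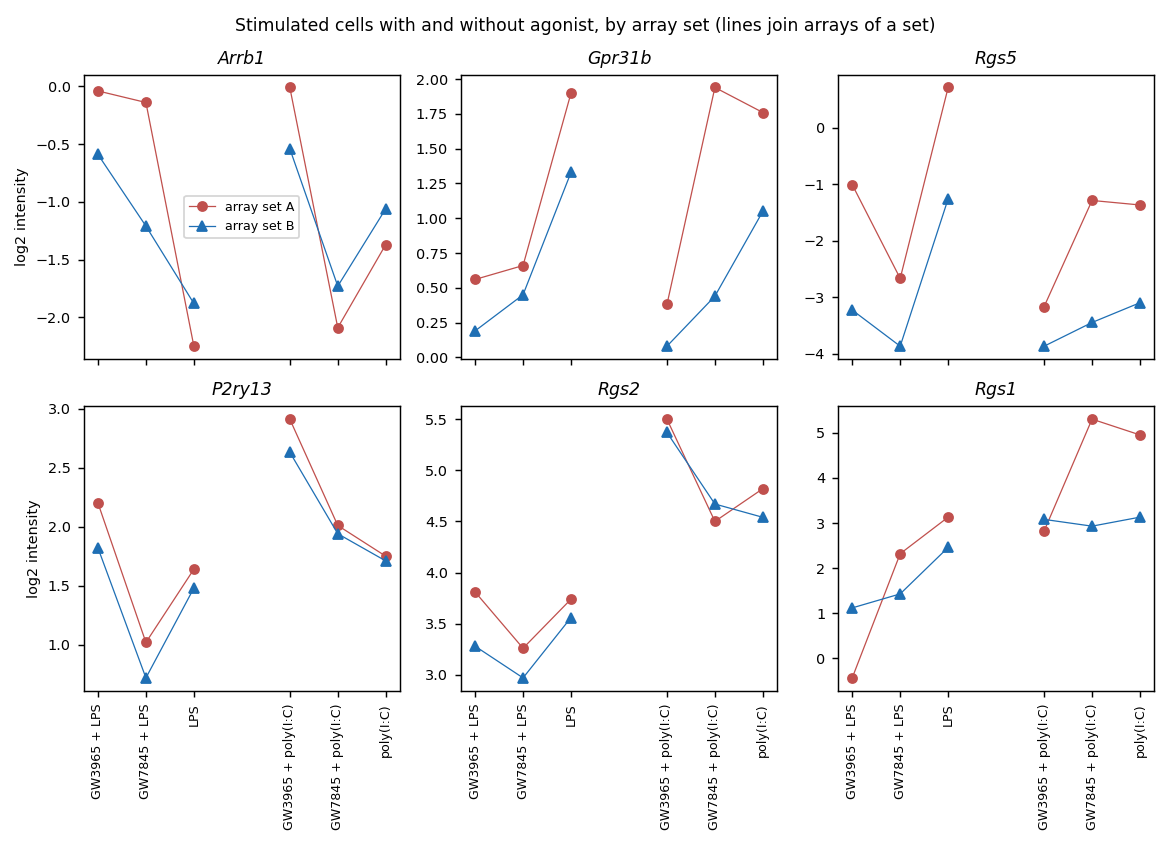
Log2 intensity of 6 members on the arrays of each agonist with a stimulus and of the stimulus alone, with lines joining arrays of one set. For Arrb1 the GW3965 arrays (-0.59 to -0.01) lie above those of LPS or poly(I:C) alone (-2.25 to -1.06), and for Gpr31b they lie below (0.08 to 0.56, against 1.05 to 1.90).

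Gpr31b had 0.56 and 0.19 with GW3965 and LPS and 0.45 and 0.66 with GW7845 and LPS, against 1.90 and 1.33 with LPS alone. With poly(I:C) it had 0.38 and 0.08 with GW3965 and 1.94 and 0.44 with GW7845, against 1.76 and 1.05 with poly(I:C) alone. The GW3965 arrays lay below every array of the stimuli alone and above both untreated arrays. The change over both stimuli was -1.21 ± 0.39 (adjusted p = 0.61, or 0.038 with the block), at -1.36 in set A and -1.06 in set B.

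Rgs5 had -1.01 and -3.23 with GW3965 and LPS and the floor of -3.87 and -2.67 with GW7845 and LPS, against 0.71 and -1.26 with LPS alone. With poly(I:C) it had -3.17 and the floor of -3.87 with GW3965 and -1.29 and -3.45 with GW7845, against -1.37 and -3.10 with poly(I:C) alone. Over both stimuli the arrays of GW3965 and of the stimulus alone overlapped. They overlapped within set A too, where GW3965 with LPS 1 (-1.01) lay above poly(I:C) 1 (-1.37). The decrease with GW3965 was at least 1.57 in its means (-1.57, adjusted p = 1, or 0.040 with the block), and with GW7845 the value was -1.56 (adjusted p = 0.19 with the block). In the comparison of GW7845 and LPS with LPS alone it was -2.99 (adjusted p = 0.091 with the block). The array at the floor makes the sizes of both GW7845 values lower limits. With poly(I:C) the GW7845 arrays overlapped those of poly(I:C) alone, so the value over both stimuli came mainly from the arrays with LPS. The difference of the GW7845 changes, poly(I:C) minus LPS, was 2.85 ± 1.48 in limma (unadjusted p = 0.075, or 0.00078 with the block). It was not called in either fit.

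Each of these 3 calls was lost when any 1 of 7 of the 8 arrays compared was left out. The call was kept without GW3965 with LPS 2 for Arrb1 and Gpr31b, and without GW3965 with poly(I:C) 2 for Rgs5. Under these omissions the change was 1.21 to 1.48 for Arrb1, -1.39 to -1.03 for Gpr31b and -2.12 to -1.01 for Rgs5. For Rgs5 the smallest size was that without GW3965 with LPS 2. Within set A the arrays of GW3965 with LPS 1, GW7845 with LPS 2 and GW3965 with poly(I:C) 1 had mean intensities of 12.7 to 13.9, and the other 4 arrays of the set had 15.7 to 19.5. Several members changed more in that set with GW3965 over both stimuli. The constitutively active Gs-coupled receptor Gpr3 was at -2.25 in set A and -0.16 in set B, Rgs1 at -2.84 and -0.69, and Arrb1 at 1.79 and 0.91. The part of this difference in mean intensity in the agonist values was not tested.

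**Figure D4:**
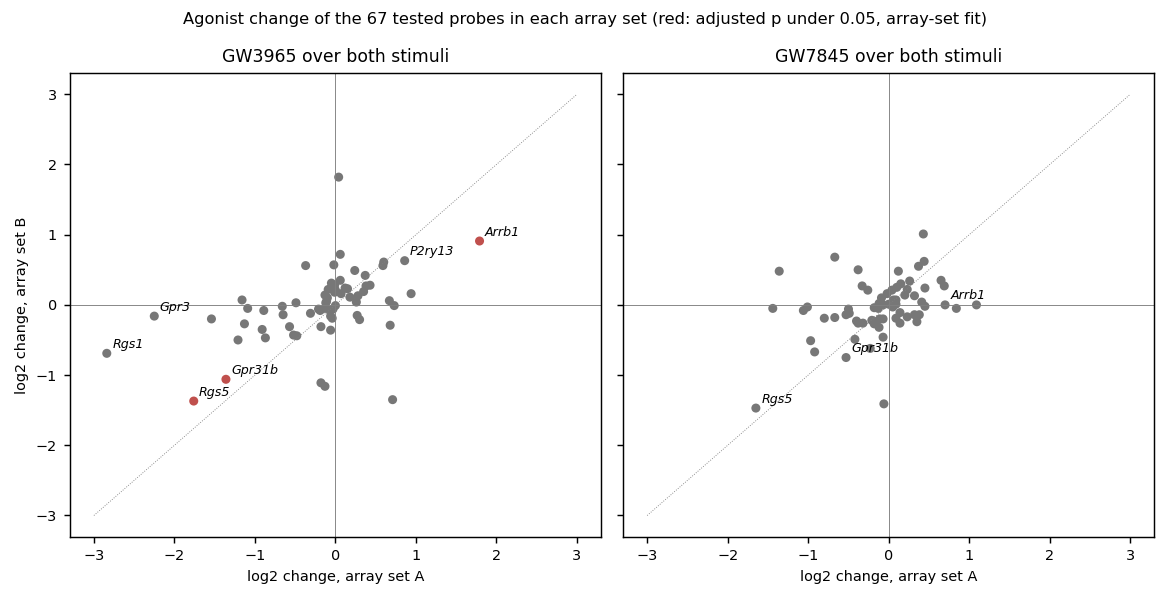
Log2 change of each of the 67 tested member probes over both stimuli with GW3965 (left) and GW7845 (right), in array set A (x axis) and array set B (y axis), with red points for adjusted p under 0.05 in the fit with the array set as a block. Arrb1 (1.79 and 0.91), Gpr31b (-1.36 and -1.06) and Rgs5 (-1.76 and -1.37) are red for GW3965, no point is red for GW7845, and Rgs1 and Gpr3 lie far from 0 only in set A.

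P2ry13 had 2.20 and 1.82 with GW3965 and LPS and 0.72 and 1.02 with GW7845 and LPS, against 1.64 and 1.48 with LPS alone. The GW3965 arrays lay above and the GW7845 arrays below those of LPS. With poly(I:C) it had 2.91 and 2.63 with GW3965 and 2.01 and 1.94 with GW7845, against 1.75 and 1.71 with poly(I:C) alone. The change with GW3965 over both stimuli was 0.75 ± 0.23 (adjusted p = 0.54, or 0.065 with the block), and that with GW7845 was -0.22 ± 0.23. P2ry14 was at -0.67 ± 0.28 with GW3965 and -0.52 ± 0.28 with GW7845, and neither passed in either fit.

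Rgs2 had 5.50 and 5.37 with GW3965 and poly(I:C), against 4.82 and 4.54 with poly(I:C) alone, a change of 0.76 ± 0.32 that did not pass (adjusted p = 0.56 with the block). With LPS its change was -0.11 ± 0.32 with GW3965 and -0.54 ± 0.32 with GW7845. Rgs1 was lower with GW3965 and LPS in both arrays, at -0.43 and 1.12 against 3.13 and 2.46 with LPS alone, without passing (-2.45 ± 0.79, adjusted p = 1, or 0.19 with the block). Its change was -3.56 in set A and -1.34 in set B. Gng11, a Gγ subunit, was at -0.86 ± 0.33 with GW3965 over both stimuli (adjusted p = 0.068 with the block). P2ry1 with GW3965 and poly(I:C) was at 2.51 ± 0.92, made up of 0.66 in set A and 4.36 in set B. Among the 37 measured receptors outside the rule, Ptger2 rose with GW3965 over both stimuli by 1.47 ± 0.26 (adjusted p = 0.046, or 0.0046 with the block). It was the only one of them called without the block, and with the block 1 other was called lower. Of all probes, 0.198% were called without the block and 1.15% with it. With n = 2 arrays a group these intervals are wide, and a change that did not pass is not shown to be absent.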

How the data were processed

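The deposited value table held 1 linear intensity for each of 10012 probes on 14 one-colour arrays, which the authors had scaled before deposit to a median of 1 on each array, as the values show. The scanner software, background method and scaling were not given in the sources used here, and per the labels' protocols 0.5 µg of total RNA was used for each array. Values of 0 or less made up 0.421% or fewer of those on any array. Gene names came from the platform's annotation, in which 8983 probes had 1 symbol and 1028 had none. No detection calls were used, so signal over background is known only through the level.

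Before log2 was taken, lower intensities were set to 0.0686, the 5th percentile of positive values. Probes above the 20th percentile of their own array on at least 2 arrays were tested. Group means of all 7 groups were fitted in limma 3.58.1 (R 4.3.3) with an intensity trend, two-sided, with 7 residual degrees of freedom. Benjamini-Hochberg adjustment was over the 9584 probes, and intervals are 95% intervals of that fit. The array set, read from missing probes and the 10th percentile (29 probes were missing on all of set A and none of set B, and 30 the reverse), was a block in an alternative fit with 6 residual degrees of freedom. The labels do not name these sets.

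Deviations of arrays from their group means correlated at 0.35 to 0.67 between arrays of like number in the 15 pairs of groups without GW7845 with LPS. They correlated at -0.54 to -0.39 in the 6 pairs with that group, whose array 2 was in set A and array 1 in set B, the reverse of every other group. The replicate block therefore mixes the array sets in that group. The labels do not say that a number pairs arrays. Other alternatives were the replicate block, quantile normalization, other floors, no filter, 1 probe for each gene and leaving out arrays. The interaction tests, and leaving out arrays together with the array-set block, were added after the data were seen.

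Members called by limma were named, then those called only with the block, then a list of members named whatever their result. The members and lists were chosen with earlier results of these data known. The fits were tested on simulated data. Promoters and gene positions came from RefSeq tables of GRCm38.p6, matched by gene ID.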

Additional observations from a re-analysis of the deposited data

How the results depend on the processing

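Floors at the 1st or 10th percentile, no filter and 1 probe for each gene each gave 13 member calls with LPS and 13 with poly(I:C). Leaving out 1 array, either one of those compared or GW7845 with poly(I:C) 1, gave 5 to 13 member calls with LPS and 8 to 13 with poly(I:C). For GW3965 over both stimuli the array-set block gave 3 member calls, against 0 without it. The replicate block gave 15 member calls with LPS, 14 with poly(I:C) and 0 for each agonist, and the labels do not say that the numbers pair arrays. Quantile normalization moved the median of all probes by -0.14 with LPS, -0.17 with poly(I:C) and 0.11 with GW3965 and poly(I:C). It gave 6 higher and 8 lower members with LPS, and 4 higher and 9 lower with poly(I:C). Under it Gpr65 with LPS (adjusted p = 0.053) and Gpr85 with poly(I:C) (adjusted p = 0.08) lost their calls, and Gnb5 with LPS (adjusted p = 0.021) and poly(I:C) (adjusted p = 0.014) and Rgs5 with LPS (adjusted p = 0.0062) gained one. The cause was not tested. None of the member results recomputed under these alternatives reversed. Members named with changes near 0, such as Gpr132 and Gpr34, were not recomputed. Signal near the floor limits Rgs5, Gpr85, Gnb5 and P2ry1.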
